A study of Mus musculus with 11 samples.

Results

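The T-type calcium channel genes Cacna1g, Cacna1h and Cacna1i and the pacemaker channel genes Hcn2, Hcn3 and Hcn4 were examined in the lateral habenula of mice with an induced arthritis. They were taken by gene symbol as 6 of the 54532 genes in the count table, and all 6 were among the 19619 genes with enough counts to be tested. RNA from dissected lateral habenula of BALB/c mice aged 3 months was sequenced in 11 libraries. The collagen antibody-induced arthritis (CAIA) group had 3 female and 3 male libraries, from mice injected intraperitoneally with 50 mg/kg of a cocktail of 5 monoclonal antibodies to type II collagen and, 3 days later, with lipopolysaccharide at 1 mg/kg. The control (Ctrl) group had 3 female and 2 male libraries from mice given vehicle only. The male Ctrl libraries are labelled replicates 1 and 3, and no male Ctrl replicate 2 is among the 11 libraries. Both the antibodies and lipopolysaccharide were given to CAIA mice alone, so effects of joint disease and of lipopolysaccharide cannot be told apart. The labels give no genotype beyond the strain and do not say whether each library came from a different mouse, so the p-values measure the spread between these libraries, which may be technical.

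The lateral habenula is a small nucleus above the thalamus whose neurons signal disappointing or aversive outcomes. T-type channels are calcium channels that open at low voltage after a hyperpolarization and start a short burst of action potentials. HCN channels open when the membrane is hyperpolarized, carry an inward cation current that brings the cell back toward threshold, and are modulated by cyclic AMP. In rodent lateral habenula, burst firing depends on T-type channels and NMDA receptors and has been tied to depression-like behaviour.

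The members are paralogs, and how much coding sequence they share bears on whether short reads can be assigned to the right gene. The longest run identical between coding sequences was 68 bases for Cacna1g and Cacna1i, 50 bases for Cacna1h and Cacna1i and 41 bases for Cacna1g and Cacna1h. Among the pacemaker members it was 33 bases for Hcn2 and Hcn3, 32 bases for Hcn2 and Hcn4 and 32 bases for Hcn3 and Hcn4. The stretches around the longest run of each family are shown from GENCODE M21 transcripts (GRCm38), 5′ to 3′, with the bases that differ between paralogs in capitals. They cover coding bases 2530 to 2657 of Cacna1g, 2095 to 2222 of Cacna1i, 487 to 579 of Hcn2 and 211 to 303 of Hcn3.
Cacna1g: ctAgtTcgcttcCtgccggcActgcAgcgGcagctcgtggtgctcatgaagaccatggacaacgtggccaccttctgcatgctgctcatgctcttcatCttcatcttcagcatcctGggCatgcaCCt
Cacna1i: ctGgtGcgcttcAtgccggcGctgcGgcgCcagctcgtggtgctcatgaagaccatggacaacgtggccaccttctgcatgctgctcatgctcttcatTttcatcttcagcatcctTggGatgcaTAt
Hcn2: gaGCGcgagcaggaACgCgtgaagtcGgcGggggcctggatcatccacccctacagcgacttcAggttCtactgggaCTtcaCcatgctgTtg
Hcn3: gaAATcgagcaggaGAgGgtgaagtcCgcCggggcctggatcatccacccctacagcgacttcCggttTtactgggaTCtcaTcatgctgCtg
In the T-type pair 11 of 128 bases differed, and in the pacemaker pair 14 of 93 bases. How many reads fell within the identical runs was not tested, because the table holds only a sum per gene.

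On GRCm38, Cacna1g lies on the minus strand of chromosome 11 (94408391 to 94474198), Cacna1h on the minus strand of chromosome 17 (25374285 to 25433783) and Cacna1i on the plus strand of chromosome 15 (80287238 to 80398279). Hcn2 lies on the plus strand of chromosome 10 (79716634 to 79736108), Hcn3 on the minus strand of chromosome 3 (89146074 to 89160196) and Hcn4 on the plus strand of chromosome 9 (58823412 to 58863175). Exons of Cacna1h share 158 bases with Tpsg1 on the other strand, and exons of Hcn3 share 711 bases with Pklr on the other strand. The strand setting of the counting is not given in the sources used here. Tpsg1 itself had 0 to 5 counts per library and Pklr 2 to 12.

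Libraries held 25317306 to 29565006 counts. The members were counted at 516 to 2760 reads per library for Cacna1h and 1155 to 1545 for Hcn3, which were the lowest, and at 8749 to 14718 for Cacna1g. All 6 lateral habenula markers were detected in every library, with a mean level of 7.25 to 7.53 log2 CPM (CPM being a count scaled to the size of its library). Markers of neighbouring regions were detected too, at 6.48 to 6.94 log2 CPM for 9 medial habenula genes and 5.87 to 7.04 for 8 thalamus genes, so the RNA was not from the lateral habenula alone. The level of 14 choroid plexus markers separated the treatments, at 1.76 to 4.79 log2 CPM in CAIA libraries against 5.26 to 6.19 in Ctrl libraries. In dissected tissue, fewer cells of a type and less RNA per cell cannot be told apart.

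No channel gene passed the test for a difference between CAIA and Ctrl (edgeR's quasi-likelihood test, Benjamini-Hochberg adjusted over all genes tested, threshold 0.05). Over both sexes 0 of 6 members passed, where 0.596% of all genes tested did. In females 0 of 6 passed against a background of 0.26%, in males 0 of 6 against 0%, and for the difference between the sexes 0 of 6 against 0%. At an unadjusted p under 0.05, Cacna1h was the single member over both sexes (6.36% of all genes), in males (5.63%) and for the sex difference (4.11%), and no member was under it in females (5.22%). DESeq2 and limma-voom also called 0 of 6 members in each of these comparisons. The level of Cacna1h varied most between libraries and Hcn3 least, as the plot of CPM by library shows.

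**Figure D1:**
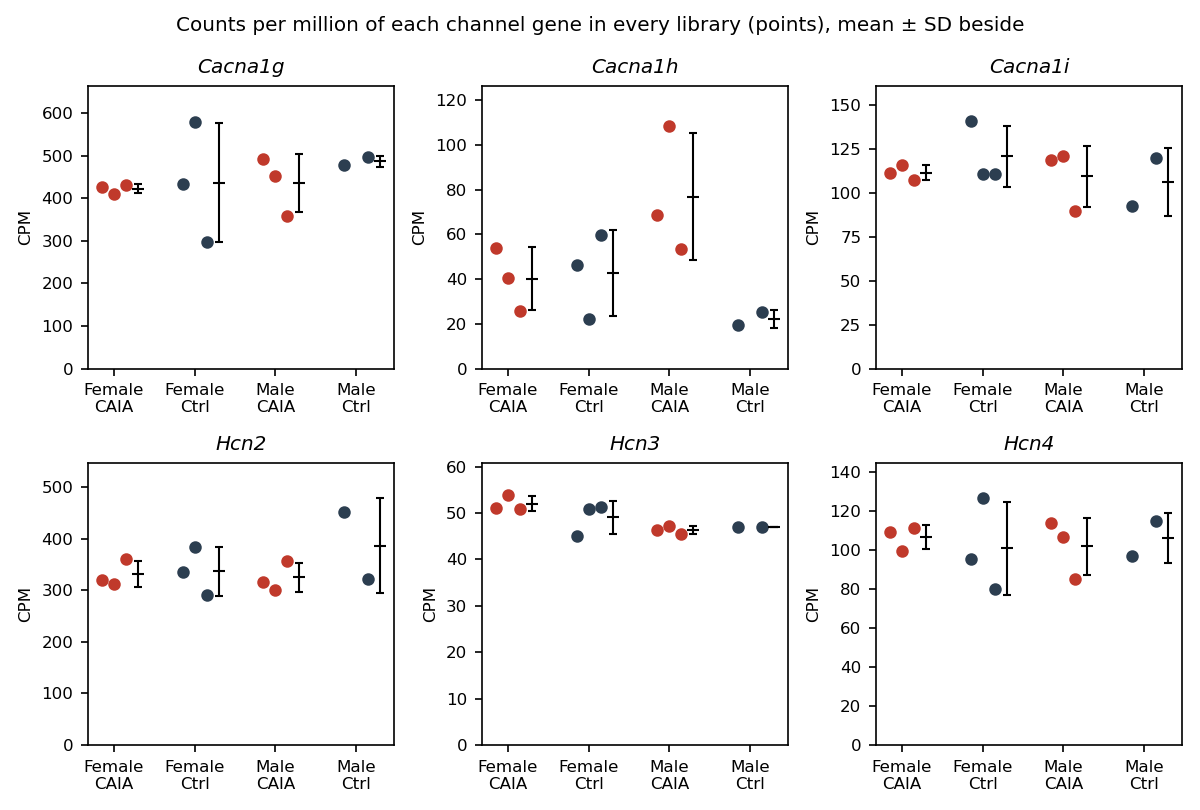
Level in CPM (TMM-scaled) of the 6 channel genes in the 11 libraries. Red points are CAIA libraries and dark points Ctrl libraries, by sex, and the bar beside each group is its mean ± SD (n = 3, or 2 for male Ctrl). Cacna1h in males is the single case without overlap between CAIA (53.4 to 108 CPM) and Ctrl (19.4 and 25.1 CPM). Of all genes tested, 17.7% did not overlap in males, in either direction.

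Cacna1g, the T-type gene known for the burst current of thalamic relay neurons, had 427, 410.1 and 430.25 CPM in female CAIA libraries, against 433, 578 and 298 CPM in female Ctrl libraries. It had 492, 453 and 359 CPM in male CAIA libraries, against 477 and 496 CPM in male Ctrl libraries. All female CAIA values lay inside the range of the female Ctrl values, and the male groups overlapped. Over both sexes the log2 fold change was -0.10 ± 0.14 (SE, 95% interval -0.42 to 0.21, edgeR adjusted p = 0.958). The interval holds changes of either sign. Female Ctrl values alone spanned 298 to 578 CPM, and male CAIA values 359 to 492 CPM.

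Cacna1h, a T-type gene known for its part in the excitability of pain-sensing neurons, had 54.0, 40.7 and 25.9 CPM in female CAIA libraries, against 46.4, 22.1 and 59.8 CPM in female Ctrl libraries. In males it had 68.9, 108 and 53.4 CPM in CAIA libraries, against 19.4 and 25.1 CPM in Ctrl libraries. The female groups overlapped over almost their whole range. In males every CAIA library was above every Ctrl library, which was the case for 1 of the 6 members, while 17.7% of all genes tested did not overlap in either direction in males. No member was free of overlap in females (background 11.5%) or over both sexes (background 1.18%). The log2 fold change in males was 1.79 ± 0.52 (SE, 95% interval 0.57 to 3.00), with an edgeR p of 0.00967 and an adjusted p of 0.693, and it did not pass. In females it was -0.09 ± 0.44 (adjusted p = 1.00) and over both sexes 0.85 ± 0.33 (95% interval 0.07 to 1.63, adjusted p = 0.733). The difference of the CAIA effect, female minus male, was -1.88 ± 0.67 and did not pass either (adjusted p from edgeR 0.978, unadjusted p 0.0245). Leaving out each library in turn gave 1.45 to 2.00 in males.

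Cacna1h was the single member whose call depended on the gene filter. DESeq2 gave a male log2 fold change of 1.78 with an adjusted p of 0.0528, just above the threshold. Without the filter on low counts, edgeR gave nearly the same male fold change, 1.78 ± 0.13, but called it. In that fit, over 35266 genes, edgeR gave the members' own spread no weight against the trend over all genes, and the quasi-likelihood dispersion of Cacna1h was 0.703, against 11.5 in the filtered fit.

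The level of Cacna1h also moved with the markers of hippocampus and cortex, regions other than the lateral habenula. All 10 of these markers were detected and none was at 0 in any library. Their mean level was 3.81 to 4.19 log2 CPM in male CAIA libraries, against 2.76 and 2.99 in male Ctrl libraries, and their summed level was 392.49 to 525.59 CPM in male CAIA and 328 to 340 CPM in male Ctrl. In females the mean level was 3.37 to 4.06 log2 CPM in CAIA and 3.22 to 4.53 in Ctrl, so these groups overlapped. The 10 markers did not all move alike. Their log2 fold changes in males were -0.04 to 2.88, with 8 positive and 2 negative. In females they were -2.69 to 1.45, with 4 positive and 6 negative. Across the 11 libraries Cacna1h and this marker level had a Pearson r of 0.838 (permutation p = 0.00168, adjusted over 30 relations 0.0252) and a Spearman rho of 0.818 (permutation p = 0.00327, adjusted 0.067). Without the male Ctrl libraries, the 2 farthest from the median, r was 0.737 (adjusted p = 0.176 by permutation over 9 libraries), which did not pass. In the 6 CAIA libraries alone r was 0.927 (exact permutation p = 0.00694, adjusted 0.104). In the same libraries the r of Cacna1h was -0.882 with oligodendrocyte markers (exact permutation p = 0.00278, adjusted 0.0833). With lateral habenula markers it was -0.818 there, and none of these passed. With each group's mean subtracted, r with the hippocampus and cortex markers was 0.814, which passed when the libraries were permuted freely (adjusted p = 0.016). It did not pass when they were permuted within their groups only (exact permutation p = 0.0347, adjusted 0.224). Within groups the smallest possible p is 0.00231, at which a single relation still would not pass alone after adjustment over 30. With the marker level as a covariate, chosen after seeing the data, the log2 fold change of Cacna1h was 0.47 ± 0.44 in males and 0.34 ± 0.23 over both sexes. Over both sexes it was 1.68 ± 0.77 with the level of choroid plexus markers as the covariate, 0.87 ± 0.27 with thalamus markers and 0.82 ± 0.33 with medial habenula markers, and none of these passed (edgeR). The hippocampus and cortex level did not overlap between male CAIA and male Ctrl libraries, nor the choroid plexus level between the treatments. An effect of CAIA and one of these levels therefore cannot be told apart there.

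**Figure D2:**
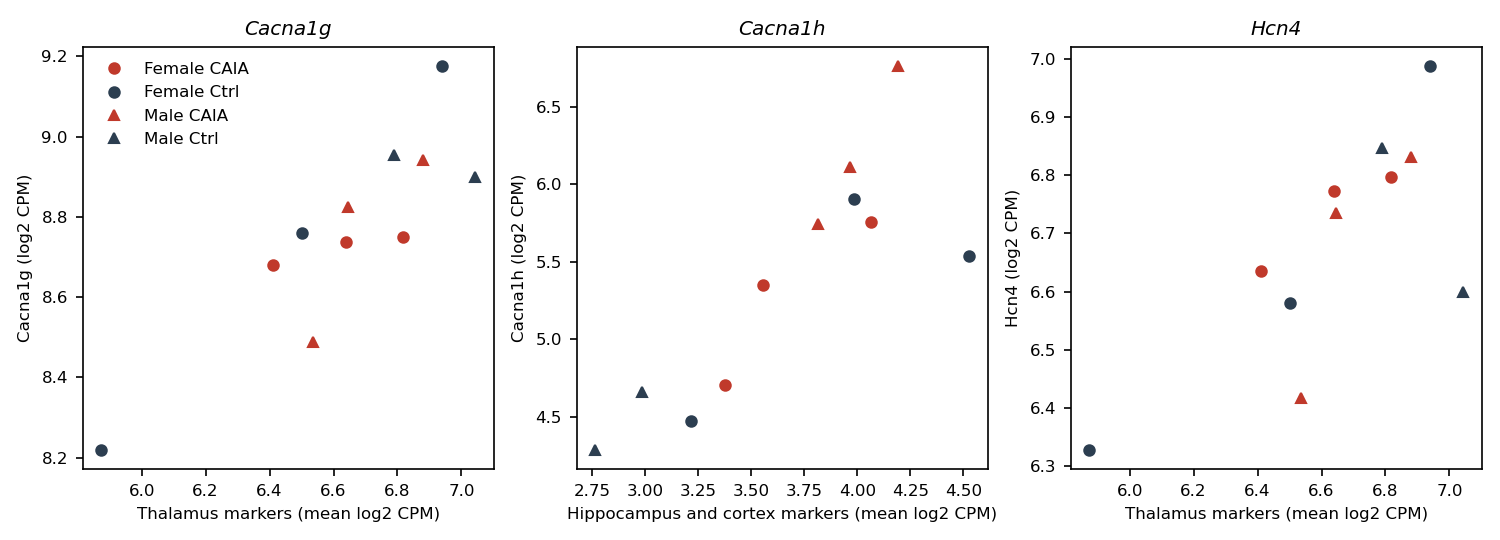
Level of Cacna1g and Hcn4 against the mean level of 8 thalamus markers, and of Cacna1h against that of 10 hippocampus and cortex markers, all in log2 CPM (logarithmic scale), with a point for each library. Circles are female and triangles male, red CAIA and dark Ctrl. The male Ctrl triangles sit at the low end for Cacna1h, at 4.28 and 4.66 log2 CPM.

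Cacna1i, the T-type gene known for slow bursts in the reticular thalamic nucleus, had 111, 116 and 107 CPM in female CAIA libraries, against 141, 110.67 and 110.63 CPM in female Ctrl libraries. In males it had 118, 121 and 89.4 CPM in CAIA libraries, against 92.2 and 119.65 CPM in Ctrl libraries. The groups overlapped in both sexes. Over both sexes the log2 fold change was -0.03 ± 0.10 (SE, 95% interval -0.25 to 0.18, edgeR adjusted p = 0.981).

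Hcn2, an HCN gene expressed widely in brain with strong cyclic AMP modulation of its channel, had 321, 313 and 361 CPM in female CAIA libraries, against 337, 384 and 290.1 CPM in female Ctrl libraries. In males it had 316, 302 and 357 CPM in CAIA libraries, against 453 and 321 CPM in Ctrl libraries. Male Ctrl replicate 1 was the highest of all 11 libraries, and the other male Ctrl library lay within the CAIA range. The log2 fold change was -0.14 ± 0.10 over both sexes (SE, 95% interval -0.35 to 0.07, edgeR adjusted p = 0.902) and -0.25 ± 0.15 in males (adjusted p = 0.914). Without male Ctrl replicate 1, the male value was 0.01.

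Hcn3, whose channel responds little to cyclic AMP, had 51.2, 53.9 and 50.9 CPM in female CAIA libraries, against 44.9, 50.9 and 51.3 CPM in female Ctrl libraries. In males it had 46.3, 47.1 and 45.5 CPM in CAIA libraries, against 47.0 and 46.9 CPM in Ctrl libraries. These were the closest values of any member, with a coefficient of variation of 6.10% over the 11 libraries. The log2 fold change over both sexes was 0.03 ± 0.06, and its 95% interval of -0.09 to 0.16 was the narrowest among the members (edgeR adjusted p = 0.967).

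Hcn4, best known as the pacemaker gene of the sinoatrial node and also expressed in thalamus, had 109, 99.4 and 111 CPM in female CAIA libraries, against 95.6, 127 and 80.2 CPM in female Ctrl libraries. In males it had 114, 106 and 85.4 CPM in CAIA libraries, against 96.9 and 115 CPM in Ctrl libraries. All female CAIA values lay inside the female Ctrl range, as for Cacna1g, Cacna1h and Hcn2. The log2 fold change over both sexes was 0.01 ± 0.11 (SE, 95% interval -0.23 to 0.26, edgeR adjusted p = 0.996).

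**Figure D3:**
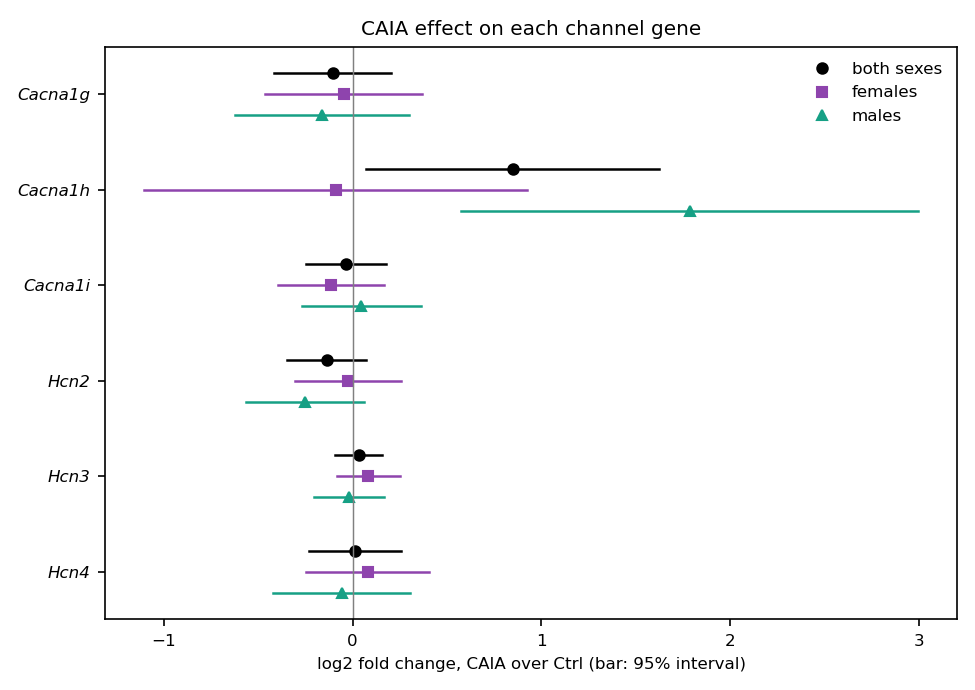
Log2 fold change of each channel gene, CAIA over Ctrl, with its 95% interval from edgeR, for both sexes together (circles), females (squares) and males (triangles). The interval for Cacna1h in males, 0.57 to 3.00, is far wider than that of any Hcn gene, and the interval for Hcn3 over both sexes is the narrowest.

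Levels can be compared between genes per length, as RPKM (reads per kilobase of merged exon, scaled to library size as for CPM). In the 6 CAIA libraries the RPKM levels were 102.7 ± 7.72 for Hcn2, 42.3 ± 4.36 for Cacna1g, 17.0 ± 1.71 for Hcn4, 11.2 ± 1.15 for Cacna1i, 11.8 ± 0.798 for Hcn3 and 5.997 ± 2.90 for Cacna1h (SD). In the 5 Ctrl libraries the order was Hcn2 at 112 ± 19.8 RPKM, Cacna1g at 45.0 ± 10.2, Hcn4 at 16.8 ± 2.97, Cacna1i at 11.6 ± 1.79, Hcn3 at 11.6 ± 0.669 and Cacna1h at 3.54 ± 1.81. Hcn2 therefore had the highest RPKM of the pacemaker members and Cacna1g the highest of the T-type genes in both groups.

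Neighbours in this order were compared within each library by an exact two-sided sign-flip permutation test over the 11 libraries, adjusted over 5 pairs. The pairs were taken from the levels in these libraries, so the p-values describe how steady each step was and are no independent evidence of the order. The log2 ratio of RPKM was 1.30 ± 0.24 (SD) for Hcn2 to Cacna1g, 1.35 ± 0.12 for Cacna1g to Hcn4, 0.57 ± 0.23 for Hcn4 to Cacna1i and 1.45 ± 0.80 for Hcn3 to Cacna1h. Each of these was positive in 11 of 11 libraries (exact permutation p = 0.000977, the smallest possible, adjusted 0.00122). Cacna1i and Hcn3 did not differ beyond their spread, at -0.05 ± 0.21, with Cacna1i higher in 4 of 11 libraries (exact permutation p = 0.441). Hcn3 exceeded Cacna1h by as little as 0.03 in male CAIA replicate 2, on the log2 RPKM scale. With the 5 Ctrl libraries alone this exact test cannot reach the threshold of 0.05.

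**Figure D4:**
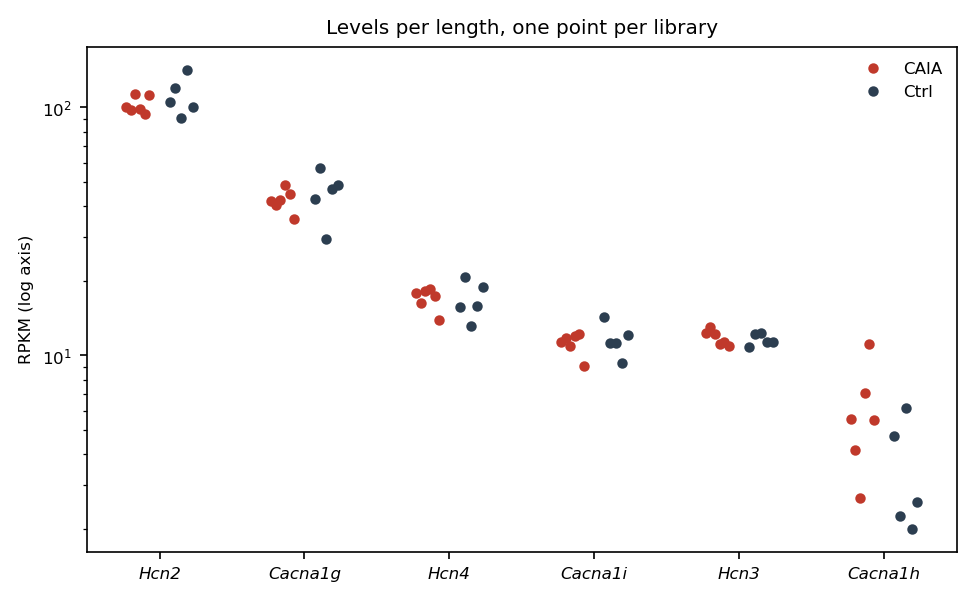
Levels of the 6 channel genes in RPKM (reads per kilobase, scaled to library size, log axis), with a point for each library, CAIA red and left, Ctrl dark and right. Hcn2 is on top at about 112 RPKM in Ctrl, Cacna1i and Hcn3 share 11.6 RPKM, and the points of Cacna1h are the most spread, from 1.99 to 11.1 RPKM.

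As shares of the summed RPKM of the T-type genes, Cacna1g made up 71.2% ± 3.24 in CAIA and 74.1% ± 7.83 in Ctrl libraries (SD, n = 6 and 5). Cacna1i made up 18.9% ± 1.15 in CAIA and 19.6% ± 3.83 in Ctrl, and Cacna1h 9.87% ± 3.89 in CAIA and 6.29% ± 4.22 in Ctrl. By sex, Cacna1h held 12.6% ± 3.26 in male CAIA against 3.73% ± 0.456 in male Ctrl, and 7.18% ± 2.33 in female CAIA against 8.0% ± 4.95 in female Ctrl. Of the summed RPKM of Hcn2, Hcn3 and Hcn4, Hcn2 made up 78.0% ± 2.0 in CAIA and 79.5% ± 2.7 in Ctrl. Hcn4 made up 13.0% ± 1.54 in CAIA and 12.1% ± 1.96 in Ctrl, and Hcn3 9.01% ± 0.766 in CAIA and 8.43% ± 1.42 in Ctrl. These shares describe RNA and were not tested.

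Between libraries, the highest CPM was 5.58 times the lowest for Cacna1h, 1.94 times for Cacna1g, 1.58 for Hcn4, 1.57 for Cacna1i, 1.56 for Hcn2 and 1.2 for Hcn3. Cacna1g and Hcn4 varied together, with a Pearson r of 0.893 across the 11 libraries, and 0.938 after each group's mean was subtracted. Cacna1h and Hcn2 ran opposite, at an r of -0.74. The other pairs lay between -0.568 and 0.433. The genes share their libraries, and these pairs are given as a description with no test.

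Cacna1g followed the thalamus markers, whose summed level was 1014 to 1465 CPM in CAIA libraries against 690.15 to 1553 CPM in Ctrl libraries, with none of the 8 at 0. Its Pearson r with their mean level was 0.877 (permutation p = 0.00067, adjusted over 30 relations 0.0201) and its Spearman rho 0.80 (permutation p = 0.00447, adjusted 0.067). Without the 2 libraries farthest from the median, female Ctrl replicate 3 and male Ctrl replicate 1, r was 0.782 (permutation over 9 libraries, adjusted p = 0.0973), which did not pass. In the 6 CAIA libraries alone r was 0.691 (exact permutation, adjusted p = 0.538). With group means subtracted it was 0.905, with an adjusted p of 0.012 by free permutation and of 0.224 by exact permutation within groups. For Hcn4 the r with the same markers was 0.737 (permutation, adjusted p = 0.0678), which did not pass, and rho was 0.655 (adjusted 0.144). It was 0.835 without the same 2 libraries (adjusted p = 0.0973 by permutation) and 0.797 with group means subtracted (adjusted p = 0.0197 by free permutation, 0.224 by exact permutation within groups). Of the 30 relations of the 6 members with 5 marker lists, 2 passed by r and 0 by rho. With group means subtracted, 9 passed by free permutation, among them Cacna1g with oligodendrocyte markers (r = -0.835) and lateral habenula markers (0.815) and Cacna1h with lateral habenula markers (-0.792). Free permutation takes the 11 libraries as exchangeable after 4 means were removed. Over the 432 orders within groups, a test added after seeing the data, 0 of 30 passed and 5 had an unadjusted exact permutation p under 0.05. The smallest p this exact permutation can give is 0.00231, so a single relation could not pass alone after adjustment over 30. The 0 of 30 therefore cannot show that a relation is absent.

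The genes most like each member across the 11 libraries, among 15556 genes averaging 1 CPM or more, were named by their Pearson r of log2 CPM. For Cacna1g these were Cit (0.976), Syt7 (0.966) and Stum (0.956). For Cacna1h they were Wipf3 (0.99), Jph1 (0.977) and Bcl11b (0.976). For Cacna1i they were 9230112E08Rik (0.936), Cic (0.923) and Tmem181c-ps (0.919), the last a pseudogene whose reads may be shared with a near-identical copy. After each group's mean was subtracted, 2 of the 3 named were still among the 3 highest for Cacna1g and for Cacna1h, and 0 for Cacna1i. The 3 for Hcn2 were Gpr137 (0.966), Chpf (0.959) and Ost4 (0.956), and those for Hcn4 were Rora (0.947), Btbd11 (0.943) and Shisal1 (0.935). Hcn3, the least variable member, had the lowest likeness, with Crb1 at 0.89, Dnajc18 at 0.87 and Dctd at 0.862. With group means subtracted these 3 were at 0.837, 0.734 and 0.805, and 0 of them remained among the 3 highest. For Hcn2 and for Hcn4, 1 of the 3 named remained. Some of 15556 genes can reach a high r over 11 libraries by chance, and these r were not tested.

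Of 30 other genes of burst firing and pacemaking, all tested, 1 passed over both sexes, where 0.596% of all genes tested did, and 0 passed for females, males or for the difference between the sexes (edgeR). At an unadjusted p under 0.05 there were 4 of 30 for both sexes together (6.36% of all genes tested), 2 for females (5.22%), 4 for males (5.63%) and 2 for the difference (4.11%). The median log2 fold change of the list was 0.09 for both sexes together, 0.03 for females and 0.12 for males, while the median of all genes tested was 0.00 in each. For the difference between the sexes it was -0.07, against -0.01 for all genes tested. These medians were not compared by a test. The list has 8 partners and regulators of HCN channels, 7 of T-type channels and 15 other genes such as NMDA receptor subunits and leak channels.

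Among the HCN partners, Kcne2, a small potassium channel subunit that can also associate with HCN channels, fell by 3.74 ± 0.52 on the log2 scale over both sexes (edgeR adjusted p = 0.0249). Its level was 0.285 to 7.15 CPM in CAIA libraries, against 11.6 to 19.5 CPM in Ctrl libraries. Kcne2 also stands among the choroid plexus markers, all 14 of which were detected and none at 0, and whose summed level was 247 to 2123 CPM in CAIA and 2717 to 5647 CPM in Ctrl. Those levels do not overlap between the groups and Kcne2 is part of them, so a change of Kcne2 and one in choroid plexus RNA cannot be told apart. Kcne2 no longer passed when any of 8 of the 11 libraries was left out. Flna, a cytoskeletal protein gene whose product binds an HCN channel, was at -0.21 ± 0.08 (adjusted p = 0.641), and Nedd4l, a ubiquitin ligase gene, at 0.20 ± 0.09 (adjusted p = 0.779), and neither passed. In females Kcne2 was at -5.32 ± 0.80 (edgeR adjusted p = 0.0553), Flna at -0.27 ± 0.11 and Vapa, which encodes a membrane-tethering protein, at 0.11 ± 0.10. In males Kcne2 was at -2.16 ± 0.65, Nedd4l at 0.33 ± 0.14 and Pex5l, which encodes an HCN auxiliary subunit, at 0.23 ± 0.12, and none of these passed.

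Among the T-type partners, Stac, an adaptor gene, was at 0.22 ± 0.14, Klhl1, an actin-binding protein gene, at 0.14 ± 0.11 and Cacna2d1, the auxiliary alpha-2-delta subunit and target of gabapentin, at 0.10 ± 0.08 over both sexes on the log2 scale, and 0 of 7 passed. In males Cacna2d1 was at 0.25 ± 0.12, with 123 ± 8.62 CPM in CAIA and 103 ± 5.999 CPM in Ctrl libraries (SD, n = 3 and 2, edgeR adjusted p = 0.878). Camk2g was at 0.17 ± 0.12 and Stac at 0.24 ± 0.21 in males, and in females Klhl1 was at 0.22 ± 0.14, Stac at 0.20 ± 0.19 and Usp5, a deubiquitinase gene, at 0.05 ± 0.08.

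Among the other genes, Grin2a, an NMDA receptor subunit gene, was at 0.25 ± 0.10 over both sexes and 0.51 ± 0.15 in males on the log2 scale (edgeR adjusted p = 0.632 and 0.573). Its level was 118 ± 15.5 CPM in male CAIA and 83.1 ± 13.2 CPM in male Ctrl libraries, against 105 ± 15.1 CPM in female CAIA and 105 ± 12.1 CPM in female Ctrl libraries (SD). Fam155a, a subunit gene of the sodium leak channel complex, was at 0.13 ± 0.07 and Kcnn1, a calcium-activated potassium channel gene, at -0.16 ± 0.08 over both sexes. In females Kcnn1 was at -0.20 ± 0.11, Kcnn2 at 0.15 ± 0.10 and Kcnj10, the astrocyte potassium channel gene, at 0.14 ± 0.10. In males Unc79 was at 0.21 ± 0.12 and the leak channel gene Kcnk3 at -0.28 ± 0.17, and 0 of these 15 genes passed in any comparison.

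For the difference between the sexes, female minus male, the lowest p in the list were those of Kcne2 at -3.16 ± 1.08, Grin2a at -0.51 ± 0.20 and Cacna2d1 at -0.30 ± 0.16 on the log2 scale. Nedd4l was at -0.25 ± 0.19, Vapa at 0.17 ± 0.14, Camk2g at -0.23 ± 0.16, Gnb2, a G protein subunit gene, at 0.16 ± 0.18, Unc79 at -0.25 ± 0.16 and Cacna1d, an L-type calcium channel gene, at -0.24 ± 0.18. None passed (edgeR, adjusted p = 0.978 for each).

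**Figure D5:**
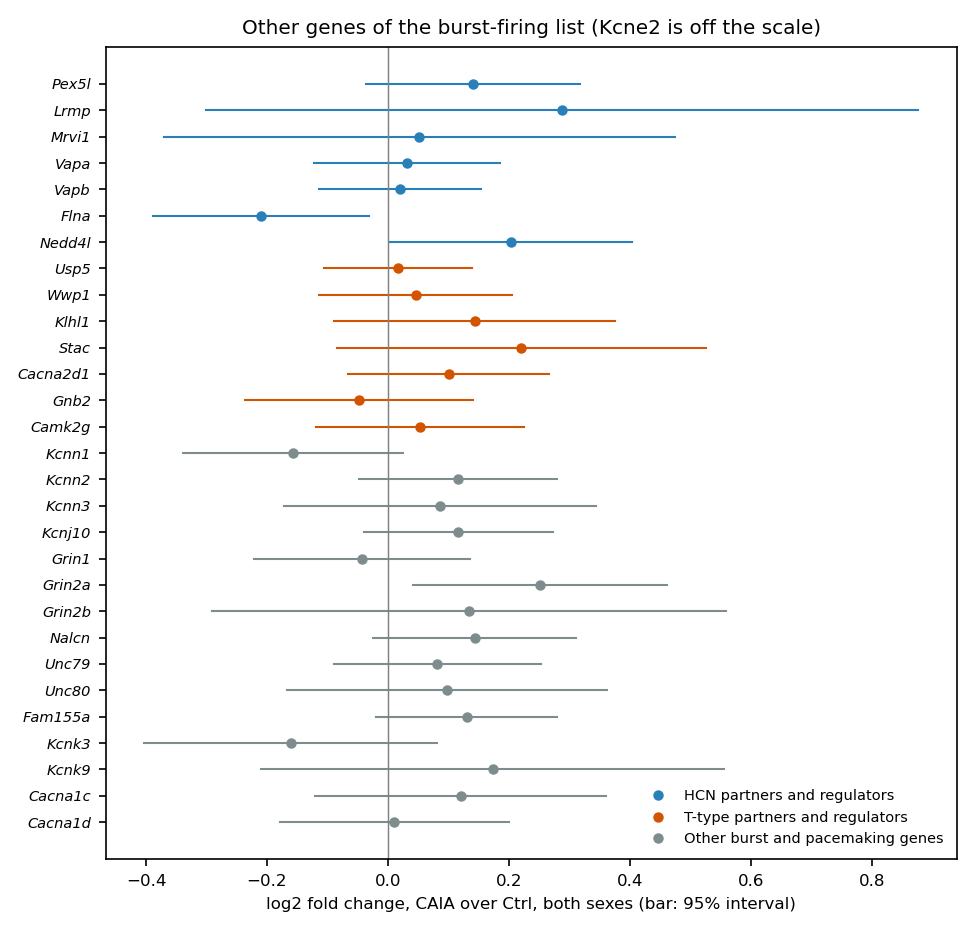
Log2 fold change of 29 of the 30 related genes, CAIA over Ctrl over both sexes, with 95% intervals from edgeR, coloured by HCN partners, T-type partners and other burst and pacemaking genes. Kcne2, at -3.74, is off the scale. Intervals of Flna, Nedd4l and Grin2a do not include 0, although their adjusted p-values do not pass.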

How the data were processed

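Total RNA from dissected lateral habenula was sequenced in 11 libraries. Titles and characteristics in the labels gave 4 groups, by sex and by treatment. The authors deposited unnormalized counts of reads, as whole numbers, for each gene. The submitters' processing notes name cutadapt 1.9.1, HISAT2 2.0.5, the build GRCm38 and, for counting, featureCounts 1.5.0-p3. Neither the annotation release nor the strand setting is given in the sources used here. Each library held 25317306 to 29565006 counts, which are reads and not independent molecules.

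The filterByExpr function of edgeR, by group, kept 19619 of 54532 genes. After TMM scaling, a model of 4 group means was fitted (edgeR 4.0.16 in R 4.3.3, robust glmQLFit and glmQLFTest, with 7 residual degrees of freedom), so that male Ctrl, with 2 libraries, shared the spread of the other groups. Contrasts were CAIA over Ctrl as the plain mean of the sexes, within females, within males, and female minus male. The Benjamini-Hochberg adjustment ran over all genes tested, with a threshold of 0.05. Standard errors were derived from the log2 fold change and F. Log2 CPM used a prior count of 2.

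RPKM used merged exon lengths of GENCODE M21, which held 54495 of the gene identifiers and may not be the authors' release. Relations with markers used 100000 permutations, two-sided. Pairs of libraries within a group differed beyond counting noise (chi-square over degrees of freedom 6.81 to 29.2), so none was treated as a library deposited more than once, which does not show that they came from separate mice. The values were 6.81 to 16.6 for CAIA pairs and 17.9 to 29.2 for Ctrl pairs. The fit took the same spread for all groups, so its intervals do not reflect this difference.

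The members, gene lists, marker lists and tests were chosen with earlier results of these data known. From each group of the list of related genes, any gene that passed and up to 3 with the lowest p per comparison were named, and for each member the 3 genes with the highest r. An item of that list is not reported here. Counts were simulated for 19619 genes, with 200 changed genes drawn from those averaging 1 CPM or more. The fit recovered 71.6%, 92.5% and 98.5% of genes changed 1.5-fold, 2-fold and 4-fold over both sexes. The same shares were 50.7%, 83.6% and 97.0% in females and 35.8%, 80.6% and 97.0% in males. They are averages over these genes, not values for any single member. Spread shared between genes was not simulated.

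The alternatives tried were other scaling factors, limma-voom (limma 3.58.1), DESeq2 1.42.0, other filters, a threshold of 0.1, a replicate block, an additive model, marker levels as covariates, each sex fitted alone and each library left out. Figures were drawn with matplotlib 3.10.9.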

Additional observations from a re-analysis of the deposited data

How the results depend on the processing

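The count of members called was 0 in every comparison under every alternative run, except without the filter on low counts, where Cacna1h was called over both sexes (0.85 ± 0.08), in males (1.78 ± 0.13) and for the difference between the sexes (-1.87 ± 0.17), so 1 member in each. Leaving out each library in turn gave a log2 fold change of Cacna1h of 0.67 to 1.00 over both sexes and 1.45 to 2.00 in males. With the replicate number as a block, which left 3 residual degrees of freedom, 0 members were called and Cacna1h was at 1.45 ± 0.55 in males. The labels do not say whether the replicate numbers pair samples. With group means subtracted, same-numbered CAIA and Ctrl libraries correlated at -0.287 to 0.12, and not every library correlated best with its own number. With so few libraries in a group, subtracting the mean ties these values to each other, so they cannot show whether the numbers pair samples. Under the block 126 genes were called over both sexes, and 82 and 31 within females and within males, and 1 related gene in females and 1 in males. DESeq2 called 222 genes over both sexes, 171 within females, 71 within males and 2 for the difference, in the same order 470, 452, 423 and 316 were called without the filter, and with the choroid plexus covariate 1, 0, 1 and 0, against 117, 51, 0 and 0. At a threshold of 0.1, 179 were called over both sexes and 91 in females. With the covariate of hippocampus and cortex markers 39 were called over both sexes, and in females 23 with that of thalamus markers and 77 with that of medial habenula markers. Fitted alone, females gave 108 and males 43. Without 1 library, 43 to 180 genes were called over both sexes, 0 to 104 within females and 0 to 142 within males.

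Of the 30 related genes, 0 were called over both sexes with the additive model, with the choroid plexus covariate (Kcne2 is among its markers) and with the hippocampus and cortex covariate, and 0 to 1 without 1 library (0 without female CAIA replicates 1, 2 or 3, female Ctrl replicates 2 or 3, male CAIA replicate 3 or either male Ctrl replicate). In females 1 (Kcne2) was called with DESeq2, limma-voom, no filter, a mean of at least 1 CPM, a threshold of 0.1 and females alone, and 0 to 1 without 1 library. In males 2 were called without the filter and 0 to 1 without 1 library, and for the difference 1 without the filter.

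No member that turned sign had passed in the reported fit. There Hcn2 was at -0.25 ± 0.15 in males and 0.23 ± 0.20 for the difference. With the hippocampus and cortex covariate, Cacna1g was at 0.0022 over both sexes, 0.092 in males and -0.18 for the difference, Cacna1i at -0.27 in males and 0.23 for the difference, Hcn2 at 0.015 in males and -0.10 for the difference, Hcn3 at 0.078 in males and -0.015 for the difference, Hcn4 at 0.15 in males and -0.10 for the difference, and Cacna1h at 0.20 in females. With the choroid plexus covariate, Cacna1h was at 0.97 and Hcn4 at -0.080 in females, Hcn4 at -0.12 over both sexes and Hcn3 at 0.051 in males. With the thalamus covariate, Cacna1h was at 0.21 in females, and Cacna1g at 0.0044 and Hcn4 at 0.056 in males, with differences of -0.14 and -0.056. With the medial habenula covariate Cacna1g was at 0.018 and Hcn2 at 0.053 in females. The block gave Cacna1g 0.0042 in females and Cacna1i -0.030 in males, limma-voom gave Cacna1g 0.0040 in females, and upper-quartile factors gave Hcn4 -0.0047 over both sexes. Without 1 library, values over both sexes were -0.22 to 0.024 for Cacna1g, -0.13 to 0.075 for Cacna1i and -0.064 to 0.11 for Hcn4. In females they were -0.26 to 0.21 for Cacna1g, -0.39 to 0.23 for Cacna1h, -0.18 to 0.018 for Cacna1i, -0.13 to 0.087 for Hcn2 and -0.066 to 0.28 for Hcn4. In males they were -0.14 to 0.26 for Cacna1i, -0.47 to 0.0091 for Hcn2 and -0.18 to 0.084 for Hcn4. For the difference they were -0.10 to 0.38 for Cacna1g, -0.37 to 0.012 for Cacna1i, -0.041 to 0.45 for Hcn2 and -0.0040 to 0.35 for Hcn4. The causes were not tested.

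In the 5 Ctrl libraries alone, where the exact test cannot pass, the log2 ratios were 1.33 for Hcn2 to Cacna1g, 1.41 for Cacna1g to Hcn4, 0.53 for Hcn4 to Cacna1i and 1.86 for Hcn3 to Cacna1h (adjusted p = 0.0781 each). With group means subtracted, of the 3 genes named as most like a member, 0 remained among the 3 highest for Cacna1i and for Hcn3, and 1 for Hcn2 and for Hcn4. The relation of Cacna1g with thalamus markers had r of 0.691 in CAIA libraries alone and 0.782 without the 2 farthest libraries, that of Cacna1h with hippocampus and cortex markers 0.927 and 0.737, and none of these passed by permutation. With group means subtracted these r were 0.905 and 0.814, which passed by free permutation (adjusted p = 0.012 and 0.016) and did not by exact permutation within groups, a test added after seeing the data (adjusted p = 0.224 each). The exact permutation within groups cannot give a p below 0.00231, so a single relation could not pass it alone after adjustment.

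With 2 or 3 libraries a group, recovery in simulated data was incomplete at 1.5-fold and 2-fold, most of all within a sex, smaller changes were not simulated, and a member that did not pass is not shown to be unchanged. Leaving out a male Ctrl library leaves a single library in that group, which is then assumed to vary like the others.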
